A study of Mus musculus with 24 samples.

Results

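The interferon regulatory factor (IRF) loci were taken as all consensus ATAC-seq peaks that overlap Irf1, Irf2, Irf3, Irf4, Irf5, Irf7, Irf8 or Irf9, or the 20 kb on either side of the gene (mm10, GENCODE annotation). Of 184158 consensus peaks, 112 met this rule, 12 at Irf1, 35 at Irf2, 6 at Irf3, 18 at Irf4, 11 at Irf5, 6 at Irf7, 16 at Irf8 and 8 at Irf9, and no peak lay within reach of more than 1 member. ATAC-seq reads where a transposase can enter chromatin, so that a high count marks open DNA. The cells were mouse bone marrow-derived macrophages (BMDMs) grown in 10 ng/ml GM-CSF and 2 ng/ml TGF-β, which gives them traits of alveolar macrophages. The 4 groups were wildtype (WT) and AhR-KO cells, left unstimulated or given 97 EU/ml LPS on day 6 for 24 h, with 6 libraries per group, and the study asked how the aryl hydrocarbon receptor (AhR) and LPS shape open chromatin and gene expression. The treatment text, including 10 min with 5 µM of the ionophore A23187, is attached to every library. AhR-KO marrow came from the B6.129-Ahr tm1Bra/J line, in which every cell lacks the receptor, and the libraries of a group came from separate animals within a single experiment. Male and female mice were used, but neither the sexes within a group nor whether unstimulated and LPS-treated libraries share animals is stated.

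AhR is a receptor for small aromatic ligands that acts in the nucleus and binds DNA with its partner ARNT at sites built around GCGTG. IRFs share a DNA-binding domain that recognises GAAA repeats, the interferon-stimulated response element (ISRE). Irf3 and Irf7 are switched on by phosphorylation downstream of TLR4 and other pattern receptors and start type I interferon transcription, Irf9 is the DNA-binding part of the complex that answers type I interferon, Irf1 is a classical interferon-gamma target, Irf2 competes with it, Irf5 drives inflammatory cytokines, and Irf4 and Irf8 bind ETS-IRF composite sites with PU.1 and set the fates of macrophages and dendritic cells.

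The sequences below belong to promoters and peaks described in the results, and whether their motifs play a part was not tested. They are the upstream part of the Irf1 and Irf8 promoters, which hold STAT-binding letters, and stretches of 300 bases of 3 distal peaks that differed strongly with genotype or with LPS. All are given 5′ to 3′ on the plus strand of GRCm38 (mm10), the promoters as listed by RefSeq. Capitals mark a match on either strand to ISRE (GAAANNGAA), the ETS-IRF composite (GGAANNGAA), GAS (TTCNNNGAA, a STAT site), AP-1 (TGANTCA) or the AhR core (GCGTG), in which N is any base.
Irf1 promoter, chr11:53769764-53770013, GAS at base 161 and AhR core at base 219: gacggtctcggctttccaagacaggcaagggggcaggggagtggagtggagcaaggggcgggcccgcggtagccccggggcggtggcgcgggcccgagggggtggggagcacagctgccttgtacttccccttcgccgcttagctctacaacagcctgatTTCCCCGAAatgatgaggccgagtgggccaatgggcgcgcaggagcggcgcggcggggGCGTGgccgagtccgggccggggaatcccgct
Irf8 promoter, chr8:120736108-120736357, GAS at bases 80 and 98: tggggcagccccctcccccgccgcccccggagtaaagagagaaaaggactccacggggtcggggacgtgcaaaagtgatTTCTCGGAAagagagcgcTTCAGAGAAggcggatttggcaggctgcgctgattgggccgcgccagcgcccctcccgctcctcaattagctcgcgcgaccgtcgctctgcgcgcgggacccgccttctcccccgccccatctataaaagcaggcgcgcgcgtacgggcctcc
Irf4 12.4 kb upstream, chr13:30736742-30737041, AhR core at base 223: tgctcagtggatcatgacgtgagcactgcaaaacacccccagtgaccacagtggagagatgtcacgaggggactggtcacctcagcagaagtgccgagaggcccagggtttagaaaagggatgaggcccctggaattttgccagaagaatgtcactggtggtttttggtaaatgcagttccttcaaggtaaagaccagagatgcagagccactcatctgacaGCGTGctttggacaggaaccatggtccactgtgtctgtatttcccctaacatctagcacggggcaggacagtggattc
Irf8 21.3 kb downstream, chr8:120757047-120757346, AP-1 at base 37 and AhR core at base 208: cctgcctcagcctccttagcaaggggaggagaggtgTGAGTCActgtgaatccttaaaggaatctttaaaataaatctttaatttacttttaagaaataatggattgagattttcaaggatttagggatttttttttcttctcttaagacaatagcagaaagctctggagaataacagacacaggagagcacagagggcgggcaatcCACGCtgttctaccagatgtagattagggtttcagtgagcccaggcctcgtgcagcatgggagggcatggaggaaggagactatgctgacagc
Irf5 21.2 kb downstream, chr6:29547688-29547987, AP-1 at base 118: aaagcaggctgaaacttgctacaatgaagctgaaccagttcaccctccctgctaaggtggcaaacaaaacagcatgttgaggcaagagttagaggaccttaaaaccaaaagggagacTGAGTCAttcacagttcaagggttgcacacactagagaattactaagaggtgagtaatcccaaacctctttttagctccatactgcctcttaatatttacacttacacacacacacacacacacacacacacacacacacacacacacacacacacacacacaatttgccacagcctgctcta

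The total count per library ranged from 8.54 to 34.6 M fragments in peaks, lowest in WT unstimulated replicate 5. None of the 8 genes lies on chromosome 12, which carries Ahr, and of the 13 consensus peaks over Ahr 0 covered exon 2, which the allele is known to lack, so that these peaks do not check the deletion. Start-site peaks of macrophage markers were found for 6 of 7 genes and of alveolar-like markers for 6 of 6, and for 0 of 3 T cell, 0 of 4 B cell and 0 of 3 fibroblast markers. Of 4 dendritic cell markers 3 had one, with Xcr1 the exception, and of 3 mast cell markers only Kit, which early progenitors also express. In bulk libraries a smaller share of a cell type and less open chromatin per cell cannot be told apart.

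Of the 112 peaks, 109 passed the filter on low counts and were tested with all other peaks (edgeR's quasi-likelihood test, Benjamini-Hochberg adjustment). A differentially accessible region (DAR) passed 0.05 on the adjusted p and differed at least 1.5-fold. DARs were found at 67 of the 109 tested peaks in at least 1 of 5 comparisons, and 42 were DARs in none. LPS gave a DAR in either genotype at 56 peaks, and the genotype gave one in either treatment at 42. Shares over all tested peaks are not given for these combined counts, so they cannot be read as a trait of the IRF loci. Without LPS, 7 peaks were lower and 12 higher in AhR-KO than in WT (12.6% and 9.95% of all 174193 tested peaks were), a split of 5 and 15 under RLE size factors. The split over all tested peaks moved the same way, from 22015 lower and 17332 higher to 19366 and 20676 under RLE. With LPS, 17 IRF peaks were lower and 14 higher in AhR-KO (13.1% and 13.4% of all). With LPS in WT cells 14 peaks fell and 29 rose (21.6% and 25.4% of all), and in AhR-KO cells 19 fell and 29 rose (21.5% and 27.3% of all).

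In the higher direction the shares of the IRF peaks, 12.8% between genotypes with LPS and 26.6% with LPS in either genotype, were near those of all peaks, and in the lower direction they were 6.42% and 15.6% between genotypes without and with LPS, and 12.8% and 17.4% with LPS in WT and AhR-KO. The medians were small, 0.067 and 0.060 for AhR-KO minus WT without and with LPS, and 0.072 and 0.011 for LPS in WT and AhR-KO on the log2 scale, beside -0.021, 0.021, -0.014 and 0.046 over all tested peaks. The 2 genotype comparisons share no libraries with each other, and 5 peaks were lower in AhR-KO in both, 12.4 kb upstream of and 3.6 kb into Irf4, 9.5 and 14.8 kb from Irf9 and 119.8 kb from Irf2. The 3 that were higher in both lay 64.7 and 89.1 kb from the Irf2 and 13.4 kb from the Irf5 start site, and 0 were called in opposite directions. The calls without LPS at 14.8 kb from Irf9 and 13.4 kb from Irf5 were each lost under an alternative fit. With LPS, 22 rose and 12 fell in both genotypes. For calls shared by 2 comparisons, too, no share over all tested peaks is given. A weak peak over an untranslated exon of Irf8, 20 kb from its start site, was the 1 called in opposite directions (0.82 in WT and -1.27 in AhR-KO). Of these, the peaks 64.7 and 119.8 kb from Irf2 and 20 kb from Irf8 were picked out after their values were seen. The difference of differences (the genotype effect with LPS minus that without) was called lower at 12 IRF peaks and higher at 5 (4.58% and 5.83% of all peaks were), a split of 13 and 3 under RLE size factors and of 13 and 2 with DESeq2. Over all tested peaks the split also moved, from 7985 lower and 10147 higher to 9574 and 8660 under RLE and 9697 and 8412 with DESeq2. In the main fit Irf8 held 8 of the 12 lower IRF peaks and Irf4 held 4 of the 5 higher ones.

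**Figure D1:**
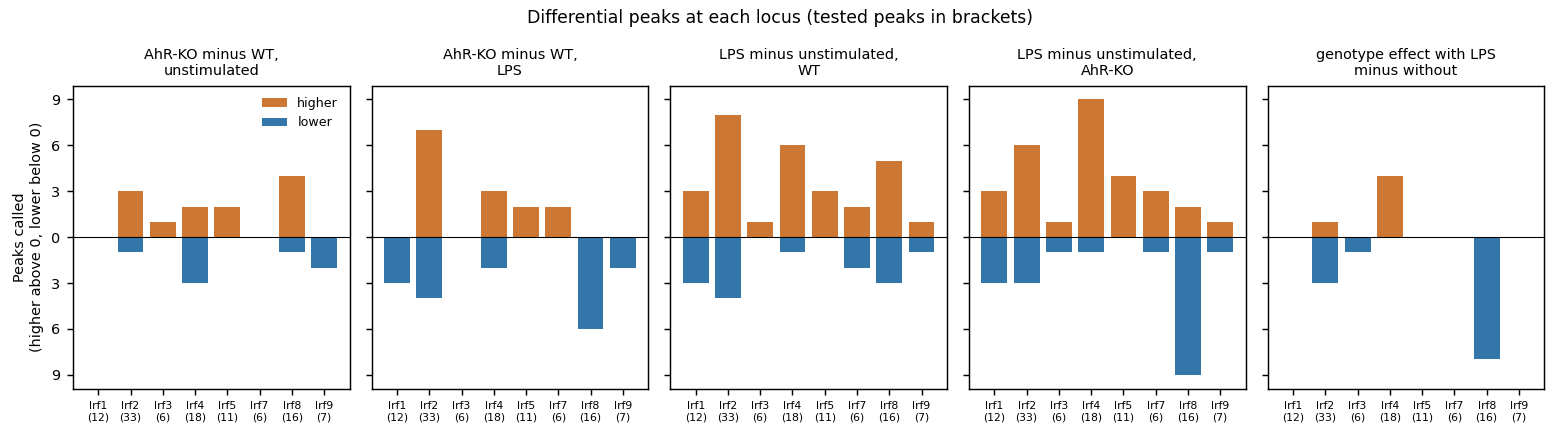
Number of peaks called higher (above 0) or lower (below 0) at each locus in the 5 comparisons, with the number of tested peaks in brackets. In the comparison of genotype effects, Irf8 has 8 peaks called lower and 0 higher, and Irf4 has 4 called higher and 0 lower.

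Every member had a peak over its transcription start site (TSS), called in all 6 libraries of every group, and 3 of the 8 were DARs in any comparison, those of Irf5, Irf7 and Irf8. Levels are given as CPM, the count scaled to a library's normalised total, and were compared between genes per kb of peak. In WT unstimulated cells the order ran from Irf2 (18.3 ± 0.748 CPM per kb, SD, n = 6) over Irf9 (17.4 ± 0.831), Irf5 (15.5 ± 1.29), Irf7 (14.1 ± 0.875), Irf4 (13.6 ± 0.950), Irf8 (11.3 ± 0.692) and Irf1 (10.7 ± 0.500) to Irf3 (9.73 ± 0.838), and each neighbour's libraries overlapped. In AhR-KO cells with LPS Irf5 stood highest (24.5 ± 2.67) and Irf8 lowest (7.80 ± 0.801). There the libraries of Irf9 and Irf2 did not overlap, and neither did those of Irf3 and Irf8. In edgeR's quasi-likelihood test 0 of the 8 start sites were genotype DARs in either treatment, and DESeq2 called 0 too. At an unadjusted p under 0.05 there were 5 without and 3 with LPS. On edgeR's adjusted p 3 without and 3 with LPS passed 0.05, so these fell short only of the fold threshold. The largest absolute value was -0.39 ± 0.077 (SE, adjusted p = 9.6e-05) at Irf8 with LPS, which is below the fold threshold.

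Irf7, the amplifier of type I interferon, had a start-site peak (chr7:141264717-141266604) of 24.4, 26.9 and 28.9 CPM (lowest, median and highest library) in WT unstimulated cells and 29.2, 35.4 and 38.5 in WT with LPS. In AhR-KO cells it went from 20.9, 23.6 and 27.2 to 37.3, 38.5 and 45.5. In each genotype all 6 LPS libraries lay above all 6 unstimulated ones. The rise was a DAR in AhR-KO (0.75 ± 0.067, adjusted p = 2.5e-12) and below the fold threshold in WT (0.39 ± 0.067, adjusted p = 5.2e-06), with a difference between genotypes of 0.36 ± 0.095 (adjusted p = 0.0079) that also stayed below it. A peak 2.5 kb upstream of Irf7 moved the other way and fell with LPS in both genotypes, by 0.68 in WT cells and by 0.61 in AhR-KO cells. Irf3, the constitutive partner of Irf7, shares its start-site peak with Bcl2l12, and this peak was a DAR in no comparison. A peak over the 3′ untranslated exon of Irf3, 5.0 kb from the start site, had a median of 0.912 CPM in WT and 0.782 in AhR-KO at rest, and of 3.34 and 4.62 with LPS. It rose by 1.88 ± 0.18 in WT cells and by 2.31 ± 0.17 in AhR-KO cells, and LPS libraries lay above all unstimulated libraries in each.

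The Irf3 neighbourhood also held a genotype difference in resting cells. A peak 21.7 kb downstream had 4.29, 5.27 and 7.79 CPM in WT and 10.2, 11.8 and 14.98 in AhR-KO at rest, with no overlap (1.09 ± 0.16, adjusted p = 3.4e-06). With LPS it had 3.78, 5.11 and 7.81 in WT against 6.08, 7.38 and 7.98 in AhR-KO, and the genotype difference shrank to 0.37, a change of -0.72 ± 0.23 (adjusted p = 0.029). Of the 6 Irf3 peaks 4 lie over start sites, those of Bcl2l12, Prmt1, Scaf1 or Rras, as given in the annotation.

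With LPS in WT cells, 7 of the 8 member start sites passed 0.05 on the adjusted p, in either direction. Of these only Irf5 also passed the fold threshold. Its peak (chr6:29526306-29527169) went from 11.8, 13.5 and 14.99 CPM to 16.9, 20.2 and 23.2 with LPS in WT (0.61 ± 0.078, adjusted p = 1.9e-08), the only member start site that was a DAR in WT. In AhR-KO it went from 14.95, 16.2 and 17.3 to 19.4, 20.1 and 25.4 (0.39 ± 0.076), below the fold threshold, and the difference between these effects was -0.22 ± 0.11 (adjusted p = 0.18). The distal peak 21.2 kb downstream, printed above, was nearly closed at rest, with 0.099, 0.135 and 0.397 CPM in WT and 0.0878, 0.197 and 0.595 in AhR-KO, from 21 and 32 fragments over all 6 libraries. With LPS it reached 1.68, 2.35 and 3.38 CPM in WT and 2.48, 3.57 and 4.64 in AhR-KO. This was a rise of 3.66 ± 0.32 and 3.87 ± 0.28 on the log2 scale, the largest LPS increase at any IRF peak with at least 1 CPM in a group compared. An intronic peak 13.4 kb from the Irf5 start site was higher in AhR-KO both without (0.59 ± 0.15) and with LPS (0.80 ± 0.13), the first a value near the fold threshold whose call was lost under the replicate block (0.57), and one at 10.2 kb was higher without LPS (0.78 ± 0.13).

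Irf9, the DNA-binding subunit of the interferon-activated STAT complex, kept its start-site peak, with medians of 29.8, 30.5, 32.98 and 34.9 CPM in WT, AhR-KO, WT with LPS and AhR-KO with LPS and no DAR. A small peak 9.5 kb downstream responded to both factors. It had 0.644, 0.763 and 0.915 CPM in WT and 0.212, 0.458 and 0.608 in AhR-KO at rest, and 1.23, 1.89 and 2.28 against 0.646, 1.002 and 1.31 with LPS. The WT and AhR-KO libraries did not overlap without LPS and did with it. The peak was lower in AhR-KO by a log2 difference of -0.81 ± 0.25 without and -0.88 ± 0.18 with LPS, and it rose with LPS by 1.25 ± 0.20 and 1.19 ± 0.23 in WT and AhR-KO. A peak 14.8 kb downstream, over the start site of Rec8, was lower in AhR-KO too (-0.63 ± 0.16 and -0.67 ± 0.14). Its call without LPS was lost with RLE size factors (-0.57) and DESeq2 (-0.57).

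**Figure D2:**
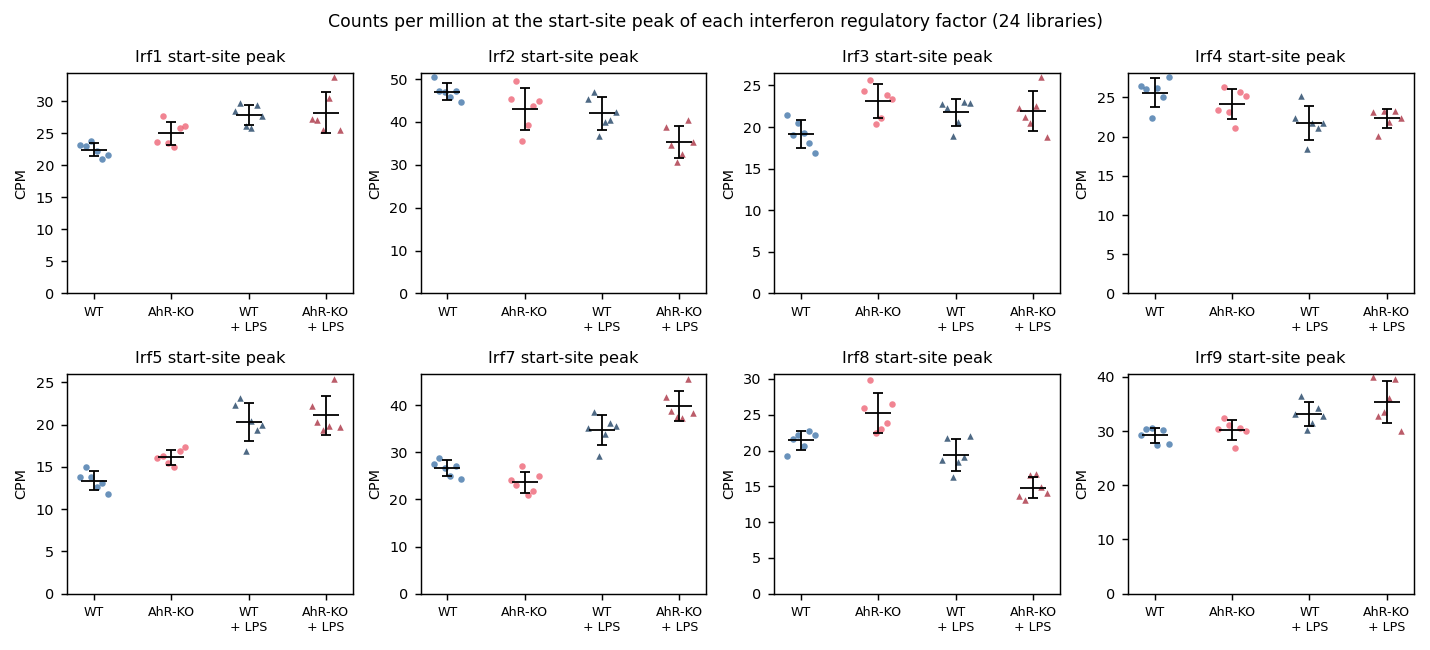
Normalised read count (CPM) at the start-site peak of each of the 8 genes in all 24 libraries, with the mean and SD of each group in black. With LPS the Irf7 peak is at 29.2 to 38.5 in WT and 37.3 to 45.5 in AhR-KO, and the Irf8 peak is lowest in AhR-KO with LPS, at 13.1 to 16.7.

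Irf1, an early interferon and LPS response gene, had a start-site peak with the GAS match and the AhR core printed above, and it was a DAR in no comparison. Its medians were 22.6 CPM in WT, 24.8 in AhR-KO, 28.04 in WT with LPS and 27.1 in AhR-KO with LPS. The largest peak downstream of the gene, 24.8 kb from the start site (chr11:53793963-53795648), was lower in AhR-KO and lower with LPS. WT libraries had 26.8, 29.8 and 35.1 CPM and AhR-KO libraries 18.7, 20.4 and 24.5 without LPS, and 16.5, 19.4 and 23.5 against 7.78, 9.63 and 11.6 with LPS. Neither pair of genotype groups overlapped, but only the difference with LPS passed the fold threshold (-1.0 ± 0.092, adjusted p = 1.6e-10, against -0.53 ± 0.089 without), and the change between treatments of -0.47 ± 0.13 did not. A weak neighbour 27 kb from the start site, with 39 fragments over the WT and 42 over the AhR-KO unstimulated libraries, rose with LPS by 2.89 ± 0.20 in WT cells and by 2.40 ± 0.20 in AhR-KO cells and was lower in AhR-KO with LPS (-0.67 ± 0.14). Within the gene, peaks at 4.8 and 6.0 kb also fell with LPS in both genotypes, at -1.24 (WT) and -1.55 (AhR-KO) for the first and -0.99 and -1.13 for the other. These were picked out after their values were seen.

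Irf2, the long antagonist gene, carries 35 peaks, of which 33 were tested. Its start-site peak was the strongest of the members in WT unstimulated cells (median 47.1 CPM) and no DAR, at 44.4 in AhR-KO, 41.3 in WT with LPS and 34.9 in AhR-KO with LPS. The largest genotype difference with LPS among its tested peaks was 5.0 kb upstream (chr8:46734573-46734840), where a broad peak was called in only 1 of the 24 libraries. This weak peak had 0.116, 0.202 and 0.309 CPM in WT and 0.261, 0.322 and 0.466 in AhR-KO at rest, from 24 and 46 fragments, and 0.423, 0.656 and 0.932 against 1.83, 2.14 and 3.88 with LPS. With LPS the AhR-KO and WT libraries did not overlap (1.87 ± 0.19, adjusted p = 7.3e-10). The LPS effect itself was 1.59 ± 0.30 in WT and 2.81 ± 0.22 in AhR-KO, a difference of 1.22 ± 0.42 (adjusted p = 0.044) that was no longer called with RLE size factors, DESeq2 or the replicate block.

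Other Irf2 peaks differed in how they followed the 2 factors. The intronic peak 89.1 kb from the start site was higher in AhR-KO in both treatments, with medians of 8.80 and 13.7 CPM without LPS (0.69 ± 0.099) and 6.17 and 11.1 with it (0.93 ± 0.098), and neither pair of groups overlapped. The intronic peak at 25.5 kb was a genotype DAR with LPS, at medians of 14.8 in WT and 8.79 in AhR-KO (-0.72 ± 0.082, adjusted p = 7.1e-09), and the change from -0.12 without LPS was -0.60 ± 0.12 (adjusted p = 0.00062). The intronic peak at 41.6 kb rose with LPS by 2.87 ± 0.28 in WT and 1.95 ± 0.24 in AhR-KO. This peak was weak, with 22 fragments over the WT and 51 over the AhR-KO unstimulated libraries, and a broad peak was called in only 2 of the 24 libraries. A peak 119.8 kb from the start site, beyond the gene's end, was lower by about the same amount in every step, -1.02 and -0.97 for genotype and -1.02 and -0.97 for LPS.

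The Irf4 locus held the largest genotype differences without LPS, at peaks other than its promoter. Irf4 is a lineage factor of macrophages and dendritic cells and is also needed for alternative macrophage activation. Its start-site peak had medians of 26.2, 24.3, 21.7 and 22.7 CPM in WT, AhR-KO, WT with LPS and AhR-KO with LPS, and was a DAR in no comparison. The peak 12.4 kb upstream (chr13:30736559-30737041) had 4.54, 8.79 and 9.51 CPM in WT and 0.811, 1.42 and 1.77 in AhR-KO at rest. Each of the 6 AhR-KO libraries was under the lowest WT library, a 5.93-fold difference (-2.57 ± 0.23, adjusted p = 1.1e-09). With LPS it had 5.51, 10.4 and 15.8 in WT against 6.12, 6.66 and 7.38 in AhR-KO. The groups now overlapped, with 1 WT library below every AhR-KO one, and the difference was -0.65 ± 0.18 (adjusted p = 0.0043). The genotype effect thus moved by 1.92 ± 0.29 (adjusted p = 7.6e-05), since LPS raised the peak in AhR-KO (2.30 ± 0.23) and gave 0.37 ± 0.18 in WT. A broad peak was called here in 6 of 6 WT and 0 of 6 AhR-KO libraries without LPS, and in 6 of 6 of each with LPS.

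The second Irf4 genotype peak, 3.6 kb into the gene over a coding exon, stayed low in AhR-KO cells with LPS. It had 3.37, 7.001 and 8.98 CPM in WT and 1.10, 1.30 and 1.95 in AhR-KO at rest. With LPS the values were 3.47, 8.31 and 12.3 in WT against 1.54, 2.24 and 2.77 in AhR-KO. Neither pair of groups overlapped (-2.25 ± 0.29, adjusted p = 1.0e-06, and -1.93 ± 0.26, adjusted p = 1.4e-06), and the change of the effect was 0.32 ± 0.40 (adjusted p = 0.65). A broad peak was called in 5 of 6 WT and 0 of 6 AhR-KO libraries without LPS and in 6 of 6 and 0 of 6 with LPS.

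A further Irf4 peak, 18.9 kb upstream, was opened by LPS and more so without AhR. It had medians of 0.209 and 0.214 CPM in WT and AhR-KO without LPS, from 22 and 24 fragments, and 0.976, 1.08 and 1.30 in WT against 2.26, 2.33 and 2.73 in AhR-KO with LPS. The LPS groups did not overlap (1.11 ± 0.15, adjusted p = 2.9e-07), and the LPS rise was 2.46 ± 0.25 in WT and 3.71 ± 0.22 in AhR-KO, a difference of 1.25 ± 0.39 (adjusted p = 0.037) that DESeq2 did not call. A coding-exon peak at 8.5 kb was higher in AhR-KO with LPS (1.29 ± 0.18), and the peak 20.3 kb downstream rose with LPS by 0.91 ± 0.081 and 0.99 ± 0.079 in the respective genotypes. In all, LPS raised 6 of 18 Irf4 peaks in WT and 9 in AhR-KO, and lowered 1 in each. The shares raised were 33.3% and 50.0%, beside 25.4% and 27.3% of all tested peaks. The share lowered was 5.56% in each, beside 21.6% and 21.5% of all.

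**Figure D3:**
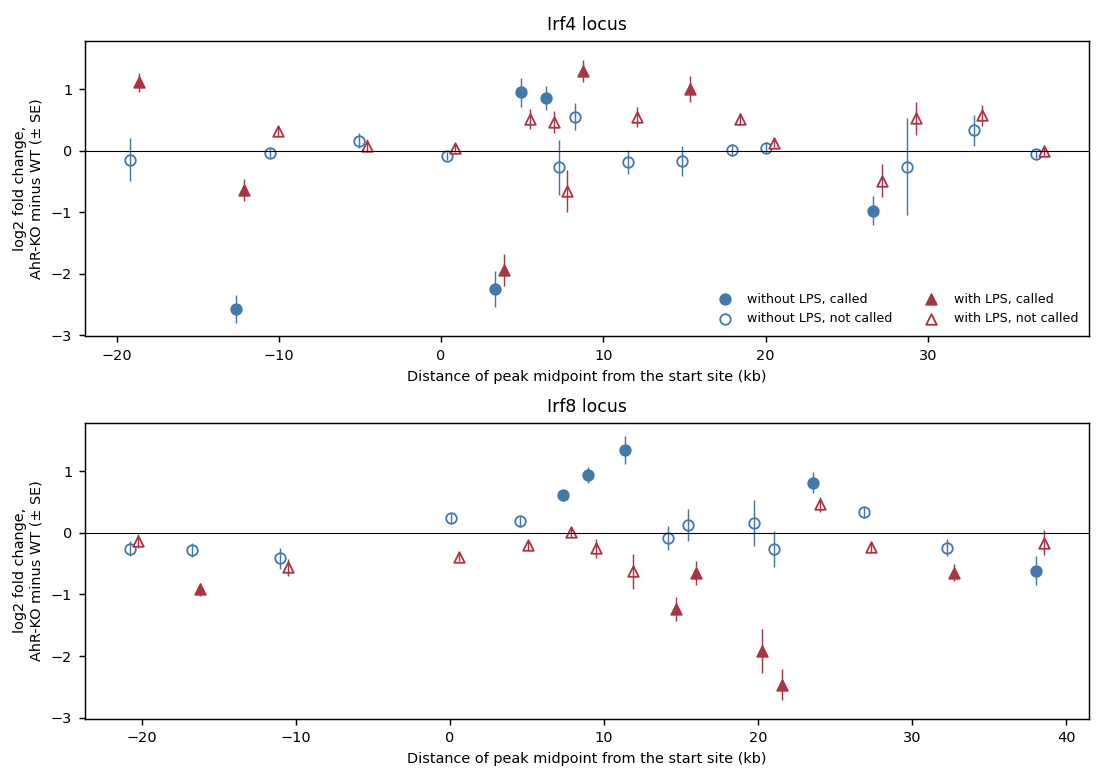
Log2 fold change between AhR-KO and WT (± SE) of each tested peak at Irf4 and Irf8, by distance of its midpoint from the start site in kb, without LPS (circles) and with LPS (triangles), filled where called. At Irf4 the peaks 12.4 kb upstream and 3.6 kb downstream are at -2.57 and -2.25 without LPS, and at Irf8 the triangles lie below the circles at most peaks within and downstream of the gene.

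At Irf8, a lineage factor of monocytes, macrophages and type 1 dendritic cells, AhR-KO cells lost accessibility with LPS over much of the locus. Of 16 peaks, LPS lowered 9 in AhR-KO and 3 in WT and raised 2 and 5. The shares lowered were 56.2% and 18.8%, beside 21.5% and 21.6% of all tested peaks. The shares raised were 12.5% and 31.2%, beside 27.3% and 25.4% of all. The summed CPM of all 16 was 89.9 ± 4.71 in WT, 105 ± 10.2 in AhR-KO, 87.2 ± 7.28 in WT with LPS and 64.2 ± 2.95 in AhR-KO with LPS. The median log2 fold change with LPS over these peaks was -0.768 in AhR-KO and -0.039 in WT. The start-site peak (chr8:120735756-120737657), whose printed promoter holds a pair of GAS matches, had 19.2, 21.9 and 22.8 CPM in WT, 22.5, 24.8 and 29.9 in AhR-KO, 16.3, 18.9 and 22.03 in WT with LPS and 13.1, 14.4 and 16.7 in AhR-KO with LPS. It fell with LPS in AhR-KO, where the groups did not overlap (-0.77 ± 0.078, adjusted p = 5.8e-11), and gave -0.14 ± 0.078 in WT, and the difference of -0.62 ± 0.11 (adjusted p = 0.00016) made it the only member start site whose interaction was called.

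Of the peaks within the Irf8 gene, those 7.6, 9.2 and 11.6 kb from the start site were higher in AhR-KO at rest and fell with LPS in AhR-KO. The others within the gene were no DARs at rest, among them the intronic peaks at 14.4 kb (-0.09) and 15.7 kb (0.12), and the latter rose with LPS in WT (1.26). The coding-exon peak 9.2 kb from the start site had 2.84, 4.33 and 5.89 CPM in WT and 6.74, 8.35 and 10.7 in AhR-KO at rest, with no overlap (0.94 ± 0.13, adjusted p = 3.5e-07). With LPS it had 1.44, 1.81 and 1.96 in WT against 1.02, 1.57 and 1.70 in AhR-KO, which overlapped. LPS lowered it in both, by a log2 change of -1.30 ± 0.15 in WT and -2.49 ± 0.14 in AhR-KO, so the effects differed by -1.20 ± 0.21 (adjusted p = 0.00013). The intronic peak at 11.6 kb followed the same course, higher in AhR-KO at rest (1.34 ± 0.22) and falling with LPS (-2.66 ± 0.24 in AhR-KO, -0.69 ± 0.26 in WT), and its genotype effect moved by -1.97 ± 0.36 (adjusted p = 0.00029). The exonic peak at 7.6 kb was likewise higher at rest (0.61 ± 0.084), with a move of -0.59 ± 0.12.

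The peak 21.3 kb from the Irf8 start site (chr8:120756947-120758405), which begins 253 bp beyond the annotated end of the gene, was opened by LPS in WT cells. It had 0.991, 1.87 and 1.98 CPM in WT and 1.09, 1.39 and 1.89 in AhR-KO at rest, which overlapped. With LPS it had 3.10, 6.15 and 10.4 in WT against 0.811, 1.07 and 2.35 in AhR-KO. All WT LPS libraries lay above the libraries of every other group, the WT rise was 2.02 ± 0.25 (adjusted p = 7.4e-08), and the AhR-KO value was -0.19 ± 0.29. The genotype effect with LPS was a 5.52-fold difference (-2.46 ± 0.25, adjusted p = 8.5e-09), and the change of the effect was -2.20 ± 0.39 (adjusted p = 0.00037), the largest at any IRF peak. A broad peak was called here in 6 of 6 WT and 1 of 6 AhR-KO libraries with LPS, and in 1 and 0 without. Its neighbour 23.8 kb from the start site rose with LPS in both genotypes (1.72 ± 0.15 in WT, 1.37 ± 0.13 in AhR-KO) and was higher in AhR-KO without LPS (0.82 ± 0.17), so adjacent peaks moved in different ways.

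**Figure D4:**
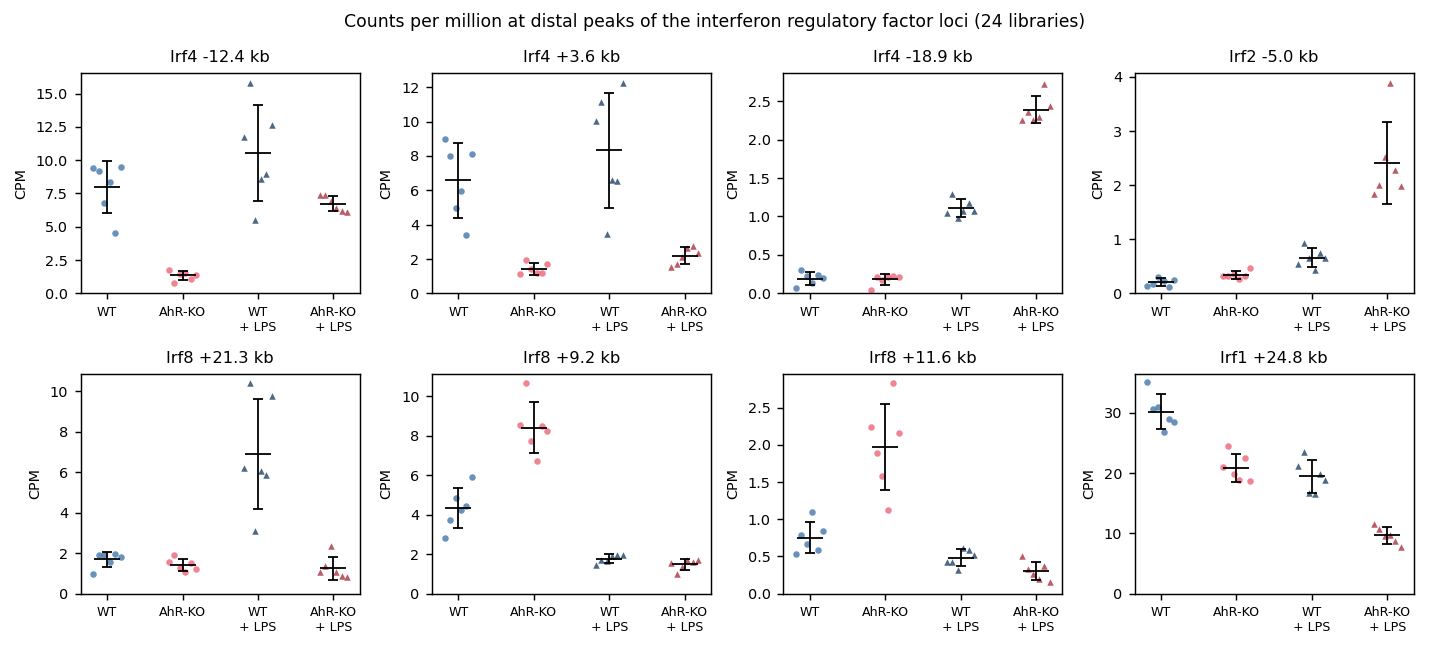
Normalised read count (CPM) at 8 distal peaks in all 24 libraries, with the mean and SD of each group in black, named by gene and distance of the peak from the start site. At Irf8 +21.3 kb the 6 WT libraries with LPS are at 3.10 to 10.4 and all others at 0.811 to 2.35, and at Irf4 +3.6 kb the AhR-KO libraries are below the WT libraries of the same treatment.

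Some markers of other cells differed between the groups as these Irf4 and Irf8 peaks did, and others did so in part or not at all. At the start site of Flt3, a cytokine receptor of progenitors and dendritic cells, libraries had 5.93 to 12.1 CPM in WT, 2.96 to 4.57 in AhR-KO, 8.12 to 15.2 in WT with LPS and 3.75 to 5.06 in AhR-KO with LPS. AhR-KO was lower by a log2 difference of -1.16 without and -1.29 with LPS. Kit, a receptor of progenitors and mast cells, had 8.96 to 12.9, 3.97 to 5.30, 10.97 to 15.9 and 5.47 to 6.998 CPM in the same order, and was lower in AhR-KO by -1.21 and -1.24. Both genes thus separated the genotypes as the Irf4 peak within the gene did. Ccr7, a chemokine receptor of mature dendritic cells, had 0.528 to 1.52 CPM in WT and 0.365 to 0.748 in AhR-KO, and 3.27 to 10.5 and 1.75 to 4.47 with LPS, and it rose with LPS in both genotypes (2.84 and 2.13) and was lower in AhR-KO with LPS (-1.53). In AhR-KO, where Ccr7 rose with LPS, the Irf8 peak 21.3 kb from the start site did not, at means of 1.43 CPM without and 1.26 with LPS. Zbtb46, a defining factor of classical dendritic cells, was a DAR with genotype in neither treatment (0.21 and -0.19), and Xcr1 had no start-site peak. Summed over the 3 dendritic cell markers that had one, libraries were at 25.7 to 34.5 CPM in WT, 26.6 to 32.6 in AhR-KO, 28.3 to 45.2 in WT with LPS and 20.01 to 25.9 in AhR-KO with LPS.

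The summed start-site CPM of the 6 macrophage markers ran from 123.8 to 144.4 in WT, 145.5 to 185.5 in AhR-KO, 105.4 to 116.7 in WT with LPS and 93.5 to 133.0 in AhR-KO with LPS. That of the 6 alveolar-like markers ran from 52.2 to 58.2, 68.1 to 84.0, 45.5 to 53.7 and 51.5 to 64.7. Without LPS both sums were higher in every AhR-KO than in every WT library, as the Irf8 peaks 7.6, 9.2 and 11.6 kb from the start site were. The markers did not share this evenly. No macrophage marker was a genotype DAR without LPS, at 0.57 for Cd68, 0.44 for Mertk, 0.33 for Itgam, 0.20 for Lyz2, 0.088 for Adgre1 and 0.019 for Fcgr1. Of the alveolar-like markers Marco (0.94), Itgax (0.72) and Car4 (0.61) were DARs, and Siglecf (0.41), Pparg (0.18) and Chil3 (-0.045) were not. Cxcr2, the 1 of 4 neutrophil markers with a start-site peak, was lower in AhR-KO without LPS (-0.84).

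Within the WT groups single libraries stood low at several of these peaks. Among WT unstimulated libraries, replicate 5 was lowest at both Irf4 peaks (4.54 and 3.37 CPM) and at Flt3 (5.93) and Kit (8.96), and it was the shallowest library; without it the genotype effects were -2.65 and -2.35. In that group Zbtb46 was also lowest in replicate 5 (19.1), but Ccr7 was lowest in replicate 1 (0.528). Among WT LPS libraries, replicate 3 was lowest at both Irf4 peaks (5.51 and 3.47), at Irf8 21.3 kb downstream (3.10), at Ccr7 (3.27) and at Kit (10.97). There Flt3 was lowest in replicate 5 (8.12, with replicate 3 at 8.56) and Zbtb46 in replicate 1 (15.5, with replicate 3 at 16.5). In AhR-KO with LPS, replicate 3 was highest at that Irf8 peak (2.35) and at Ccr7 (4.47). The Irf4 peaks did not share an order in AhR-KO. At rest replicate 1 was highest 12.4 kb upstream (1.77) and lowest 3.6 kb into the gene (1.10), and replicate 2 was lowest (0.811) and highest (1.95). With LPS, replicates 1 and 2 were the 2 highest upstream (7.35 and 7.38) and the 2 lowest within the gene (1.54 and 1.71). The Irf4 peak 12.4 kb upstream differed from the markers in AhR-KO, since it rose from a mean of 1.35 to 6.73 CPM with LPS while Flt3 and Kit were no DARs with LPS (0.21 and 0.30). The part of the cell mixture in these IRF results was not tested.

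**Figure D5:**
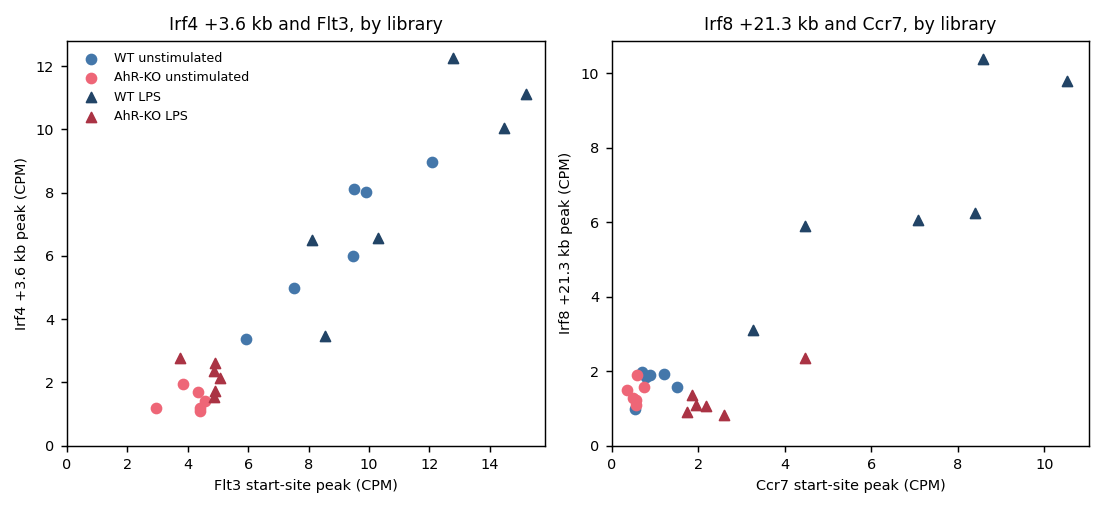
Left, the Irf4 peak 3.6 kb from the start site against the Flt3 start-site peak, and right, the Irf8 peak 21.3 kb from the start site against the Ccr7 start-site peak, both in CPM, 1 point per library. AhR-KO libraries sit at low values on both axes on the left (Flt3 at 2.96 to 5.06), and on the right the WT LPS libraries extend to 10.5 on Ccr7 and 10.4 on Irf8.

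Further genes of the interferon pathway were read at their start-site peaks, for 43 of 45 genes, beside 11599 start-site peaks in all. Genotype gave a DAR at 1 of them without LPS and at 0 with it in edgeR's test. There 27 and 23 had an unadjusted p under 0.05. On the adjusted p 23 and 15 passed 0.05, and apart from the DAR these fell short only of the fold threshold. Of all start-site peaks 3.70% and 1.73% were lower and higher without LPS, and 5.08% and 1.26% with it, and RLE size factors and DESeq2 each called 1 higher with LPS. The DAR of edgeR's test was Rsad2, an antiviral enzyme, lower in resting AhR-KO cells (-0.71). Rsad2 lies on chromosome 12, as Ahr does, and whether this plays a part in its differences between genotypes was not tested. LPS lowered 2 and raised 8 in WT (5.60% and 3.70% of all start sites) and lowered 3 and raised 11 in AhR-KO (10.2% and 4.26%). Among the 15 tested interferon target genes 7 rose in WT and 8 in AhR-KO, with medians of 0.547 and 0.604 beside -0.066 and -0.108 over all start sites.

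The targets that rose most in AhR-KO were Oasl1, an antiviral OAS family member (1.28 in WT and 2.12 in AhR-KO), Ifit3 (1.22 and 1.68), Ifit1 (0.96 and 1.57) and Rsad2 (0.81 and 1.73), while in WT Cxcl10, a chemokine, rose more than Rsad2 did (0.95, and 0.87 in AhR-KO). The LPS effect was larger in AhR-KO at Oasl1 (0.84), Rsad2 (0.92) and Ifit1 (0.61), all called. These genes started lower in resting AhR-KO than in resting WT cells (-0.37, -0.71 and -0.45). With LPS the genotype differences were 0.46, 0.21 and 0.16, and none was a DAR. Ciita, the master regulator of MHC class II, went the other way and fell with LPS (-1.60 in WT, -2.20 in AhR-KO), with a difference of -0.60 that was not called without WT unstimulated replicate 5. Of the ligands, Ifnb1 and Ifna4 rose in AhR-KO (0.80 and 1.29) and were not called in WT (0.41 and 0.27), and the difference was called for Ifna4 (1.02) and not for Ifnb1 (0.39). The Ifna4 peak was weak, with means of 1.68 CPM in WT, 1.27 in AhR-KO, 2.06 in WT with LPS and 3.11 in AhR-KO with LPS. All 7 receptor and kinase genes and all 6 partners were DARs in no comparison, with 6 to 9 of these 13 at an unadjusted p under 0.05 in the genotype and LPS comparisons, and DESeq2 called 1 partner with LPS in AhR-KO and 1 in the interaction. Spi1, which encodes PU.1, fell just short of the fold threshold with LPS in AhR-KO (-0.575, edgeR adjusted p = 8.1e-07). It was also higher in resting AhR-KO than in resting WT cells (0.43, adjusted p = 0.00019). Batf3 came near the threshold in the interaction (-0.566, adjusted p = 0.0016). Among 11 signalling genes Ikbke, a kinase that activates Irf3 and Irf7, rose with LPS (0.83 and 0.68), Ticam2 fell (-0.72 and -0.74), and Tmem173, which encodes STING, fell in AhR-KO (-0.63).

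Across the 24 libraries, the start-site peak most like that of Irf7 among 11569 genes over 1 Mb away was Oasl1 (Pearson r of log2 CPM 0.968), followed by AW011738 (0.962) and Zbp1 (0.958), while the median over all genes was -0.205. For Irf5 they were Cpd (0.954), Mvp (0.946) and H2-Q7 (0.944), and for Irf8 Hsd11b2 (0.935), Ttyh3 (0.933) and Slc25a1 (0.927). Irf1 was most like Ddx6 (0.915), Parp12 (0.909) and Rela (0.906), and Irf2 most like Atad2b and Klf7 (both 0.927) and Cdk13 (0.924). Irf3 followed Mrpl51 (0.909), Irf9 followed Map2k3 (0.876), and Irf4, whose start site hardly moved, had the lowest best match, Gm5431 (0.808). These libraries share the 4 groups and their depth, so the values are a description.

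Searched for the 5 motifs in the 300 bases around their middle, 18 of the 109 tested IRF peaks held an ISRE (16.5%, against 10.9% of 174106 tested peaks on the main chromosomes), 26 the AhR core (23.9% against 16.3%), 21 an AP-1 site (19.3% against 18.1%), 12 an ETS-IRF composite (12.1% of all) and 5 a GAS (4.59% against 11.1%). Of the 19 IRF peaks lower in AhR-KO in either treatment, 2 held the AhR core in this window, and 14.5% of the 32673 such peaks in all did. The AhR core printed for the Irf4 peak 12.4 kb upstream lies outside its central window, which holds an AP-1 site that the printed stretch leaves out. Both matches printed for the Irf8 peak 21.3 kb downstream lie outside its central window too. The Irf4 peak 3.6 kb into the gene, which is not printed, holds the AhR core and an ETS-IRF composite in its central window. Among the 11 RefSeq promoter entries of the members, of 300 bases each, 5 held the AhR core, 3 a GAS, 1 each an ISRE and an ETS-IRF composite (both in Irf2) and 0 an AP-1 site, against 32.4%, 8.30%, 8.56%, 8.24% and 7.81% of 32851 promoters. A match to one motif can cover bases of another, as ISRE and ETS-IRF composite do.

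Peaks called by the authors within single libraries were set beside the consensus peaks. A broad peak overlapped 44 of the 112 IRF peaks in all 24 libraries. It did so in all 6 libraries of a group at 48 in WT, 55 in AhR-KO, 59 in WT with LPS and 56 in AhR-KO with LPS, and in 0 libraries at 36, 34, 22 and 23. These lists depend on the depth of each library.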

How the data were processed

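ATAC-seq reads of the 24 libraries were processed by the authors (bcl2fastq 2.20.0, nf-core atacseq, mm10, MACS2 with no version given), who merged the peaks of all libraries into 1 consensus set and deposited raw fragment counts per peak and library (featureCounts 2.0.1 per the file headers). The authors also deposited broad peaks per library with fold enrichment, −log10 p and −log10 q columns, of which only the positions were used here. Counts are not corrected for transposase bias, and a broad peak depends on the depth of its library.

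Samples were grouped by the labels. Peaks passing filterByExpr (174193 of 184158) were fitted in R 4.3.3 with edgeR 4.0.16 (TMM, quasi-likelihood with robust trended dispersion, group as the only term), with Benjamini-Hochberg adjustment over all of them. Log2 fold changes are given with SE, and levels as CPM with TMM library sizes. Before use, the fit was tested on simulated data with known fold changes. The 60 library pairs within groups differed beyond sampling noise. The alternatives were RLE size factors, DESeq2 1.42.0, no filter, a replicate block, only the 2 groups compared, other windows around the genes, a fold of 2 and leaving out WT unstimulated replicate 5, the shallowest library; no other library was left out in turn, since groups hold 6.

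The members and gene lists were chosen with earlier results of these data known. Peaks named by rule were the start-site peak of each gene, the called peak with the smallest p per gene and comparison, and the 3 largest called changes per comparison among peaks with a mean of at least 1 CPM in a group compared, 34 in all. Motifs were searched on both strands of GRCm38 sequence. Some items are not reported here.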

Additional observations from a re-analysis of the deposited data

Results flagged for a closer look

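The genotype effect with LPS minus that without was called at 10 of the named peaks. It was 1.25 at Irf4 18.9 kb upstream, 1.92 at Irf4 12.4 kb upstream and 1.22 at Irf2 5.0 kb upstream, so AhR-KO was relatively higher with LPS there. It was -0.72 at Irf3 21.7 kb downstream and -0.60 at Irf2 25.5 kb into the gene. At Irf8 it was -0.62 at the start site and -0.59, -1.20, -1.97 and -2.20 at 7.6, 9.2, 11.6 and 21.3 kb from it.

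Single libraries stood apart from the other 5 of their group in 10 of 136 combinations of named peak and group (Dixon's test), where 6.8 would be flagged by chance at 1 in 20. WT unstimulated replicate 5 had 0.698 CPM at Irf1 27 kb from the start site. AhR-KO unstimulated replicate 1 had 0.0393 and AhR-KO LPS replicate 5 had 2.73 at Irf4 18.9 kb upstream. WT LPS replicate 3 had 1.35 at Irf9 17 kb upstream and 4.36 at Irf3 5.0 kb from the start site. AhR-KO unstimulated replicate 2 had 0.595 at Irf5 21.2 kb downstream and 21.3 at Irf8 7.6 kb into the gene. AhR-KO LPS replicate 4 had 3.88 at Irf2 5.0 kb upstream, WT LPS replicate 6 had 1.82 at Irf2 41.6 kb into the gene, and AhR-KO LPS replicate 3 had 2.35 at Irf8 21.3 kb downstream.

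A peak that did not pass the filter on low counts, 121.6 kb from the Irf2 start site, had a mean of 0.881 CPM in WT with LPS. Fitted without the filter it was lower in AhR-KO with LPS (-3.19, edgeR adjusted p = 1.5e-06) and higher with LPS in WT (2.35, adjusted p = 4.1e-05).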

How the results depend on the processing

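All 232 alternative values for the start-site peaks kept their direction and their side of the threshold, as did 409 of 416 for the other named peaks, and 0 reversed. The 7 that fell below the threshold were the interaction at Irf2 5.0 kb upstream (RLE, DESeq2 and the replicate block), that at Irf4 18.9 kb upstream (DESeq2), Irf9 14.8 kb downstream without LPS (RLE and DESeq2) and Irf5 13.4 kb into the gene without LPS (replicate block). With only the gene body and 5 kb upstream, IRF peaks called lower and higher with LPS between genotypes were 8 and 9, with LPS in WT 8 and 14 and in AhR-KO 12 and 13, 1 was lower between genotypes without LPS and 3 were higher in the interaction. These windows hold fewer peaks. With a minimum fold of 2 the counts were 3 lower and 2 higher between genotypes without LPS, 6 and 5 with it, 5 and 19 with LPS in WT, 10 lower in AhR-KO and 6 lower in the interaction. Interaction calls in the higher direction were 3 with RLE, 2 with DESeq2 and 3 with the replicate block, and the cause was not tested. Of the pathway start sites, 1 was higher between genotypes with LPS under RLE and DESeq2, and 2 were lower in the interaction under both and 0 without WT unstimulated replicate 5. Broad peaks covering most of the consensus peak (a share of at least 0.5) were found in all 6 libraries at 31 IRF peaks in WT and 36 in AhR-KO with LPS. Replicate numbers do not pair the samples by the labels, and the correlation of same-numbered libraries between treatments ran from 0.037 to 0.290 in WT (median 0.205, against -0.0557 for other numbers) and from 0.0038 to 0.171 in AhR-KO (median 0.0581, against -0.0045), so not every pair was over 0.1, with 4 and 3 of 6 libraries correlating best with their own number. The replicate block gave 7 lower and 11 higher IRF peaks between genotypes without LPS and 17 and 14 with it. Weak peaks rest on few fragments, so differences there were detectable only when large.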
